A study of Homo sapiens with 6 samples.

Results

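The genes described here are the well-expressed long intergenic noncoding RNA (lincRNA) genes of H1155, a human large cell lung cancer line of neuroendocrine type. They were selected on measured values: of 58735 genes in the deposited count table, 7629 carried the biotype lincRNA, 3511 of these had at least 1 count, and 233 had a mean of at least 50 counts over the 6 libraries. FENDRR, H19, MEG3 and KCNQ1OT1 were left out by the same rule. Because the mean ran over both groups, a gene could enter through the group in which it was high: 26 members had a WT mean under 50 counts, 19 had a GFI1-KO mean under 50, and 188 reached 50 in both groups. The genes just inside the threshold were AC138904.1 with a mean of exactly 50 counts and AL035461.2 with 50.3, and those just outside it were MIATNB with 49.7 and AP000766.1 with 49.3.

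The series compared 3 WT libraries of H1155 with 3 libraries labelled GFI1-KO, all from untreated cells grown in DMEM with 10% FBS. GFI1 encodes a zinc finger protein that represses transcription, and the KO cells came from monoclonal GFP+ clones sorted after CRISPR/Cas9 deletion in the GFI1 promoter. The labels do not give the clone behind each library or whether the libraries came from separate cultures, so the p-values measure the spread between these samples, which may be technical. GFI1 (ENSG00000162676) had 153, 106 and 125 counts in the WT libraries and 174, 188 and 170 in the libraries labelled GFI1-KO. Its transcript count was therefore not lower in the edited group (log2 fold change 0.31 ± 0.12 SE, Benjamini-Hochberg adjusted p = 0.0273 in the quasi-likelihood test of edgeR). The call was lost under DESeq2 (adjusted p = 0.127), so within these counts every direction given here rests on the labels alone. The paper presents immunoblots of GFI1 protein for the deletion in H1155 cells, which do not identify single libraries.

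Library totals ran from 14882914 to 17692882 counts, and a gene with no count would have been limited to at most 0.170 to 0.202 CPM (3 counts, counting error only). All 8 neuroendocrine markers examined were detected with means of at least 50 counts, and their summed normalized counts were 21617 to 22232 in WT and 28210 to 28451 in GFI1-KO. The sums of 4 epithelial markers (3385 to 3567 in WT, 3987 to 4375 in GFI1-KO), 4 fibroblast markers (3001 to 3083 and 2061 to 2148, with DCN at 0 throughout) and 3 endothelial markers (445 to 502 and 220 to 248) also moved between the groups. The epithelial sum rose through KRT8 (log2 0.45 ± 0.04), while EPCAM fell from 66.9 ± 13.3 to 14.2 ± 5.91 and CDH1 from 27.0 ± 8.11 to 5.39 ± 4.30 normalized counts (SD, n = 3) and KRT18 was not called. The 4 immune markers summed to at most 8.47 normalized counts, with CD3E at 0. The part of these shifts in the results below was not tested.

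LincRNAs are transcribed by RNA polymerase II, usually capped, spliced and polyadenylated, and translated little or not at all. Some stay in the nucleus, where they scaffold nuclear bodies or act on chromatin near their own gene. Others are mainly carriers: the spliced transcript is discarded or degraded while a microRNA (miRNA) or small nucleolar RNA (snoRNA) is cut out of it, and many begin at the promoter of a protein-coding gene and run the other way. Polyadenylated RNA was captured for these libraries, so transcripts or isoforms without a poly(A) tail are under-represented. The protocol as given does not mark strand, so reads of a lincRNA gene and of a gene that overlaps it on the other strand cannot be told apart.

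Several members are known by the small RNA they carry, and the sequences of these RNAs show which hosts feed the same target recognition. Of the 233 genes, 22 held a total of 37 miRNA genes on their own strand, and 30 of these miRNA genes were matched to 49 mature sequences in RefSeq (GRCh38.p14). The seed, bases 2 to 8 from the 5′ end and the main determinant of target choice, is in capitals. The first 4 sequences share the let-7 seed although they come from 3 hosts, MIRLET7BHG, AC048341.1 and MIR4458HG. The miR-9 sequence is encoded in both LINC00461 and MIR9-3HG, miR-146a in MIR3142HG, miR-22 in MIR22HG, miR-503 in MIR503HG, and miR-374b and miR-421 in FTX.
hsa-let-7a-5p: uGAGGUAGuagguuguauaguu
hsa-let-7b-5p: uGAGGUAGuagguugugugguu
hsa-let-7i-5p: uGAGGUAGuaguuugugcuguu
hsa-miR-4458: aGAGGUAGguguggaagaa
hsa-miR-9-5p: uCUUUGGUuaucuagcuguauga
hsa-miR-146a-5p: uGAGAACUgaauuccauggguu
hsa-miR-22-3p: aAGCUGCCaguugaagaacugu
hsa-miR-503-5p: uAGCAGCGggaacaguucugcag
hsa-miR-374b-5p: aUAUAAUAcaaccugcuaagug
hsa-miR-421: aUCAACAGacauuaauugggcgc
The let-7a and let-7b arms lie in MIRLET7BHG at chr22:46112752-46112773 and chr22:46113691-46113712 on the plus strand, and let-7i in AC048341.1 at chr12:62603691-62603712 on the plus strand. The count table measures the host transcripts and holds no level of any mature miRNA.

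The promoter windows of 3 members are printed because their genes changed most or changed apart from the gene that starts beside them. Each runs from 250 bases before to 50 bases after a RefSeq start on GRCh38.p14, 5′ to 3′ on the strand of the gene named, with the GFI1 core word AATC (either strand) in capitals. LINC02593 (chr1:919643-919942, minus strand) had the largest increase, and its RefSeq start is 1324 bases from the start in the deposited table. The PCCA window (chr13:100088843-100089142, plus strand) also holds the deposited start of AL355338.1, which runs the other way. The LINC01547 window (chr21:44939864-44940163, minus strand) is placed on a RefSeq start that is also the start in the deposited table, 97 bases from the start of FAM207A.
LINC02593 promoter: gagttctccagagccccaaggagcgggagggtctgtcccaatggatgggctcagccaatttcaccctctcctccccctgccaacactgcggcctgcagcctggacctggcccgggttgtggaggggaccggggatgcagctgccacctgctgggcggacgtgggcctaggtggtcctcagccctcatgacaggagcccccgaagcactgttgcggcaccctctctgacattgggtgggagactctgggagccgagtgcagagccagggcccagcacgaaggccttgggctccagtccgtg
PCCA and AL355338.1 promoter: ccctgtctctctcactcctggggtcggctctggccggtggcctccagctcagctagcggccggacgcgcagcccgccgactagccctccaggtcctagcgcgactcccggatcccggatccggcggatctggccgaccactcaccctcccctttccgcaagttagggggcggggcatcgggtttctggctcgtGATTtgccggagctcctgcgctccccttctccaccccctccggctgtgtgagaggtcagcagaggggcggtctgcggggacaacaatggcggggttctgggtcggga
LINC01547 promoter: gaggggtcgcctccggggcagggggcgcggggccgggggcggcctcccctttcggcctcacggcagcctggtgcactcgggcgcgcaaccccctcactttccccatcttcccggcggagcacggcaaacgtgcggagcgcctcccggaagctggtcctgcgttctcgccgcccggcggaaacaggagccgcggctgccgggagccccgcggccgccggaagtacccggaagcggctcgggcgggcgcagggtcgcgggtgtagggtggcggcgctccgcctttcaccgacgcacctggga
The LINC02593 and LINC01547 windows held no AATC, and the shared PCCA window held 1, inside a match to the longer word AAATCAC on the other strand. AATC was present in 69.0% of all 35116 RefSeq promoter windows of this length and in 86 of the 133 windows of members (64.7%), and AAATCAC in 3.14% and in 5 of 133 (3.76%). Of the 111 members with a window, 23 of 37 that were higher in GFI1-KO, 17 of 25 that were lower and 33 of 49 that were not called held AATC. A match describes letters only and names no binding site.

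All 233 genes passed the filter on low counts and were tested with 17514 genes in all. At an adjusted p of at most 0.05, 71 were higher and 76 lower in GFI1-KO, and 86 were not called. The 147 called genes are 63.1% of the members, beside 72.4% of all genes tested; the higher genes are 30.5% beside 36.5%, and the lower genes 32.6% beside 35.9%. The power of the test depends on the count, and among genes with means between 50 and 340.6 counts, which hold 209 of the members, 60.3% of the members were called, against 72.0% of 3371 protein-coding genes. Of the 188 genes with a mean of 50 counts in both groups, 48 were higher and 58 lower. Changes of at least 2-fold were called in 16 genes that rose and 17 that fell (14.2%, beside 17.5% of all genes tested), and in 158 genes no WT library reached into the range of the GFI1-KO libraries (67.8%, beside 74.4%). For a single gene an exact permutation test over 3 against 3 libraries cannot go below p = 0.10 (two-sided), so the calls come from the fit across all genes.

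**Figure D1:**
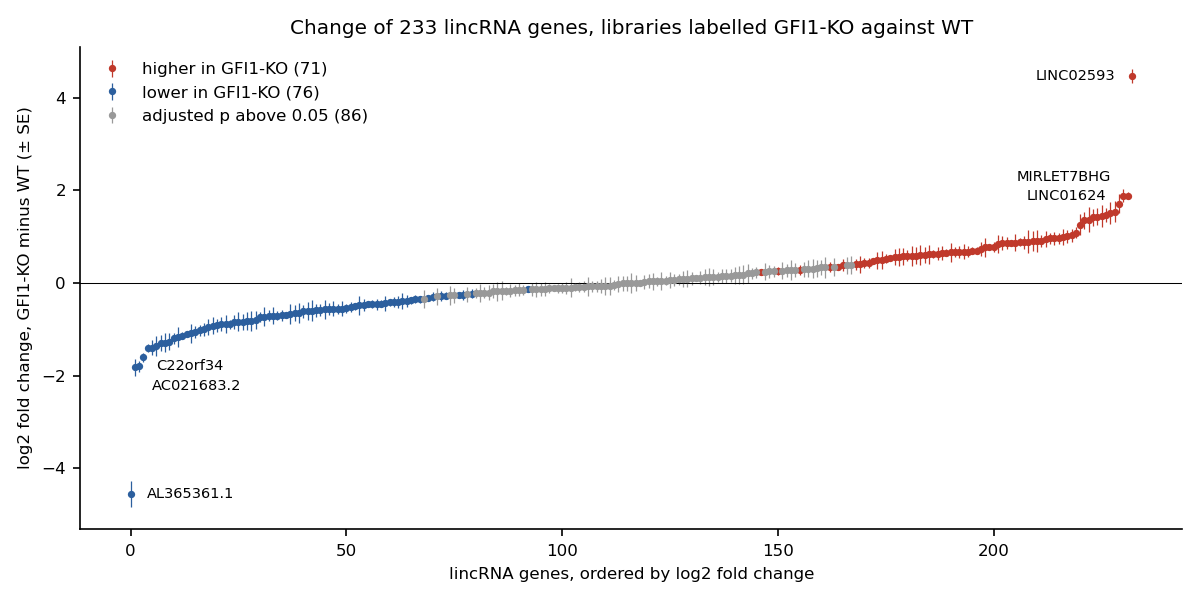
Log2 fold change (y axis, GFI1-KO minus WT, with the standard error as bars) of the 233 lincRNA genes in order of their fold change (x axis). Red points are the 71 higher genes, blue the 76 lower genes and grey the 86 not called; LINC02593 at 4.46 and AL365361.1 at -4.55 stand apart from the others, which lie between -1.82 and 1.88.

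The members are modest contributors to the transcriptome. Together they took 0.306% to 0.308% of the counts in WT and 0.314% to 0.320% in GFI1-KO, and NORAD, NEAT1 and MALAT1 made up 23.8% of that. Per kilobase of the deposited gene length, the median level was 2.54 FPKM (range 0.202 to 65.4) beside 6.54 FPKM in the protein-coding genes tested; 19 members were above 10 FPKM and 31 under 1. Their median length was 2933 bases (227 to 28487), against 5099 in the protein-coding genes. The median log2 fold change was -0.0044 in the members and 0.00050 in all genes tested, and the median absolute change was 0.46 and 0.48.

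LINC02593 (ENSG00000223764) rose most. It had 17.4, 23.2 and 12.6 normalized counts (counts scaled to the mean library) in WT and 398, 413 and 366 in GFI1-KO, so the lowest GFI1-KO library was far above the highest WT library. The fold change was 22.1 (log2 4.46 ± 0.15 SE, adjusted p = 4.6e-19 by edgeR). Its divergent neighbour SAMD11, a sterile alpha motif protein gene, starts 2912 bases away and rose further still, from 26.2 ± 8.13 to 1268 ± 69.0 (SD, n = 3; log2 5.59 ± 0.11). The difference between the 2 changes was -1.15 ± 0.36 (limma, adjusted p = 0.0173), and this call was lost when any of the GFI1-KO libraries was left out (adjusted p = 0.0511 to 0.0743).

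AL365361.1 fell most, from 110, 106 and 126 normalized counts in WT to 1.91, 5.69 and 6.59 in GFI1-KO (log2 -4.55 ± 0.29, adjusted p = 1.3e-13 by edgeR). The groups were far apart, and the gene was close to the limit of detection in GFI1-KO. The nearest protein-coding gene, KCNA3, lies 15425 bases away and encodes a voltage-gated potassium channel. KCNA3 fell from 71.9 ± 5.41 to 3.48 ± 2.90 (log2 -4.32 ± 0.36), and the 2 changes did not differ by the test (difference -0.12 ± 0.67, adjusted p = 0.892 by limma).

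Among the other large increases, MIRLET7BHG (chr22:46053869-46113928), the host of let-7a and let-7b, had 167, 163 and 151 normalized counts in WT and 630, 574 and 571 in GFI1-KO. Every GFI1-KO library was above every WT library (3.69-fold, log2 1.88 ± 0.08, adjusted p = 8.3e-17 by edgeR). It overlaps PRR34 on the other strand, which rose from 9.19 ± 0.783 to 31.3 ± 12.4 normalized counts. LINC01624 rose from 59.4, 54.2 and 47.2 to 180, 206 and 209 (log2 1.88 ± 0.14), and AL109910.2, which overlaps it on the other strand and was picked after its values were seen, from 38.9, 17.7 and 35.7 to 82.9, 69.2 and 70.6 (log2 1.26 ± 0.23). They lie 2319 and 5444 bases from DLL1, a Notch ligand gene, which rose less (550 ± 24.2 to 773 ± 41.2, log2 0.49 ± 0.06). LINC00654 had 28.7, 41.0 and 28.3 in WT and 102, 123 and 95.1 in GFI1-KO, again without overlap (log2 1.71 ± 0.20), whereas GPCPD1, a glycerophosphocholine phosphodiesterase gene 39791 bases away, fell (log2 -0.82 ± 0.06).

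The remaining 6 of the 10 largest increases had log2 fold changes of 1.41 to 1.53 and started from low WT levels. AC106782.2, AL121906.2, LINC02078, LINC00638, LINC00887 and LINC02037 had WT means of 28.2 to 73.3 normalized counts and GFI1-KO means of 80.5 to 204. LINC00887 and LINC02037 lie close together on chromosome 3, with 32.5 to 43.0 and 35.7 to 52.2 normalized counts in WT and 95.3 to 111 and 101 to 126 in GFI1-KO. Both WT ranges were below the GFI1-KO ranges, and their nearest protein-coding gene, CPN2, had too few counts to be tested.

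Among the large decreases, AC021683.2 had 129, 123 and 113 normalized counts in WT and 34.3, 29.4 and 39.5 in GFI1-KO (log2 -1.82 ± 0.18, adjusted p = 1.1e-09 by edgeR). SEPTIN9, a filament-forming GTPase gene 46344 bases away, rose (log2 0.67 ± 0.03). C22orf34, which holds the gene of miR-3667, fell from 270, 284 and 267 to 77.2, 69.2 and 89.4 (log2 -1.80 ± 0.12). It is far from BRD1, its nearest protein-coding gene at 115741 bases, which rose slightly (log2 0.32 ± 0.04). PWAR6 (chr15:25031873-25036490), a gene of the Prader-Willi region that lies inside SNHG14, fell from 477, 435 and 551 to 169, 162 and 152 (log2 -1.60 ± 0.09), and SNHG14 itself fell less (log2 -0.74). The other 6 of the 10 largest decreases, AC005261.1, LINC00941, IQCH-AS1, AC015849.5, AC005332.3 and AC245060.5, had log2 fold changes of -1.41 to -1.27.

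**Figure D2:**
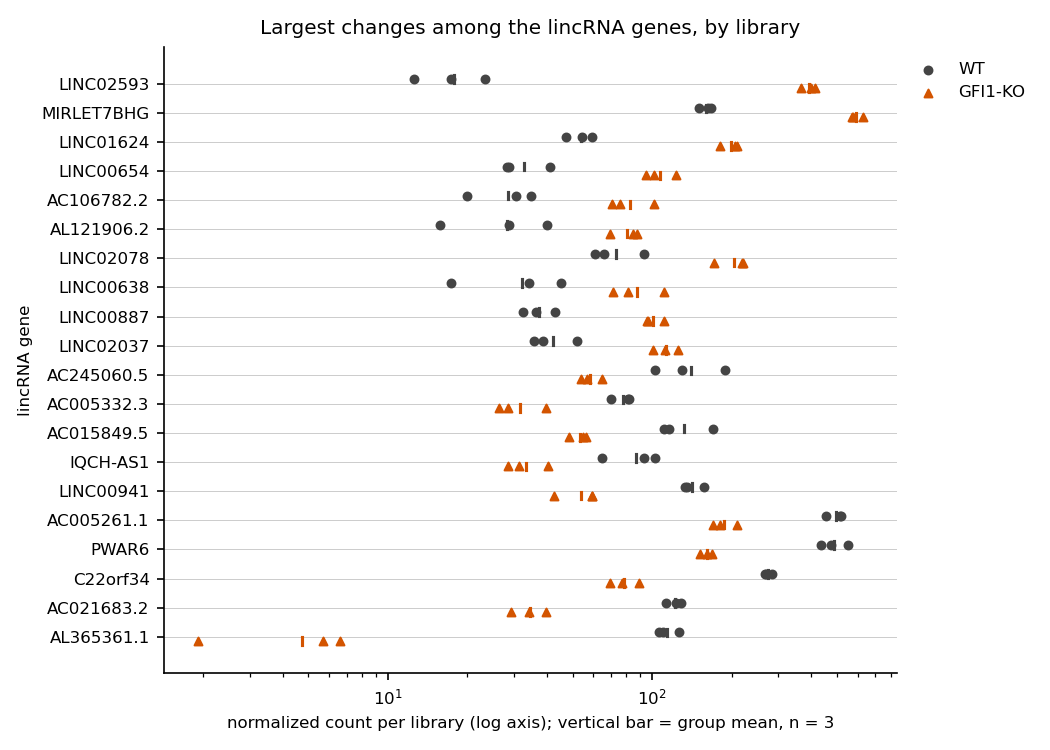
Normalized counts (x axis, log scale) in each of the 3 WT libraries (circles) and 3 GFI1-KO libraries (triangles) for the 10 largest increases and 10 largest decreases among the lincRNA genes; vertical bars are group means. In none of the 20 genes do the circles and triangles overlap, which the choice of these genes required.

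The most studied lincRNAs of the set included genes that rose, genes that fell and genes that were not called. NORAD, a mainly cytoplasmic RNA which is known for its part in keeping the genome stable and has the highest level per length, was at 5815, 5793 and 5718 normalized counts in WT and 5925, 5713 and 5734 in GFI1-KO. The groups overlapped (65.6 ± 0.549 and 65.1 ± 1.26 FPKM, log2 0.0039 ± 0.03, adjusted p = 0.919 by edgeR). The sign of the NORAD change turned with the scaling, and corrected for GC content and length it was 0.35 (adjusted p = 2.4e-10 by edgeR). As 34.9% of the 50-base words of the NORAD transcript also occur in other genes, its counts are uncertain.

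NEAT1, the scaffold of paraspeckles, rose from 2692, 2515 and 2765 to 4449, 5058 and 5008 normalized counts (1.82-fold, log2 0.86 ± 0.04, adjusted p = 1.5e-15 by edgeR). MALAT1, a nuclear speckle RNA transcribed from the same region of chromosome 11, rose from 2329, 2222 and 2353 to 3121, 3201 and 3209 (1.38-fold, log2 0.46 ± 0.04), although 66.1% of the 50-base words of its transcript also occur in other genes. In both, every GFI1-KO library was above every WT library. FTX, a regulator at the X-inactivation centre, fell from 1063, 1013 and 988 to 495, 472 and 467 (log2 -1.10 ± 0.06), and CYTOR from 257, 256 and 303 to 218, 178 and 216 (log2 -0.41 ± 0.10), a call lost with the GC correction (log2 -0.0029). Over a list of 8 such lincRNAs of any biotype, most of them nuclear, 2 were higher, 3 lower and 3 not called (median -0.0038). Of 15 paraspeckle proteins, 7 rose, among them RBM14 (log2 1.12), and 6 fell, among them SFPQ (-0.42), with a median of -0.00018. Of all genes tested, 36.5% were higher and 35.9% lower. With the GC correction 11 of the paraspeckle proteins rose and 2 fell. The shares of all genes called in the corrected fit are not given here. Corrected counts of this and the other lists are therefore not read as results about the lists. MATR3 (-0.30 to 0.29), TARDBP (-0.20 to 0.22), HNRNPU (-0.21 to 0.40) and NUDT21 (-0.34 to 0.23) were then called higher instead of lower. SMARCA4 (0.11 to -0.36) was then called lower instead of higher.

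The other members with the highest levels per length were led by LINC00599, a neural transcript that holds a miR-124 gene. LINC00599 had 1831, 1894 and 1942 normalized counts in WT and 2223, 2540 and 2452 in GFI1-KO (27.7 ± 0.830 and 34.9 ± 2.39 FPKM, log2 0.35 ± 0.04). MIR503HG rose from 18.6 ± 0.516 to 26.6 ± 1.01 FPKM and AP006621.2 from 14.2 ± 1.47 to 23.4 ± 1.88. With the GC correction MIR503HG kept its call (log2 0.74), and AP006621.2 lost it (0.15, adjusted p = 0.429 by edgeR). AL133467.4 and AL133467.2, a neighbouring pair on chromosome 14, fell from 21.5 ± 0.677 to 14.5 ± 0.945 and from 18.5 ± 0.887 to 13.7 ± 1.00 FPKM. LINC02244 (15.2 ± 3.67 and 19.1 ± 0.631 FPKM) and SNHG19 (19.2 ± 1.91 and 18.1 ± 2.98) did not pass the test. With the GC correction LINC02244 was called higher (log2 0.79, adjusted p = 2.4e-04 by edgeR) and SNHG19 lower (-0.48, adjusted p = 0.00769). EBLN3P fell from 16.7 ± 0.734 to 13.1 ± 0.170 FPKM (log2 -0.33 ± 0.04), and it was the only member called in the opposite direction with the GC correction (0.15).

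Of the 22 miRNA-holding genes, 7 were higher, 7 lower and 8 not called (median log2 fold change -0.10), near the shares of all genes tested (36.5% higher and 35.9% lower), and with the GC correction 10 and 5. By symbol, 21 host genes of any biotype were tested, of which 4 were higher, 4 lower and 13 not called (median 0.10); with the GC correction 10 were higher. The let-7 seed printed above was carried by hosts with different calls; the differences between hosts were not tested. MIRLET7BHG rose 3.69-fold, while AC048341.1, the host of let-7i, had 109, 107 and 92.4 normalized counts in WT and 81.9, 92.9 and 96.9 in GFI1-KO (log2 -0.18 ± 0.15, adjusted p = 0.279 by edgeR). MIR4458HG had 176, 182 and 204 in WT and 169, 161 and 178 in GFI1-KO (log2 -0.14 ± 0.11, adjusted p = 0.232). The groups overlapped in AC048341.1 and in MIR4458HG. With the GC correction the direction of both turned, to 0.26 in AC048341.1 (adjusted p = 0.133) and to 0.28 in MIR4458HG, which was then called higher like MIRLET7BHG (adjusted p = 0.0251).

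The genes of miR-9 also lay in hosts with different calls. LINC00461, a transcript of neural progenitors that holds the gene MIR9-2, fell from 267, 224 and 226 to 135, 145 and 148 (log2 -0.74 ± 0.11, adjusted p = 8.5e-07 by edgeR). MIR9-3HG had 597, 553 and 506 in WT and 593, 594 and 591 in GFI1-KO, where the groups overlapped (log2 0.10 ± 0.07, adjusted p = 0.171). The difference between the 2 hosts was not tested.

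Among the other hosts, MIR22HG, whose miRNA is widely expressed, rose from 126, 87.5 and 104 to 208, 223 and 246 (2.12-fold, log2 1.09 ± 0.13). It begins beside WDR81, which overlaps it on the other strand and rose too (log2 1.05 ± 0.06; difference 0.05 ± 0.17, adjusted p = 0.807 by limma). MIR3142HG, the host of miR-146a, a feedback regulator of NF-κB signalling, rose from 55.3, 54.2 and 43.0 to 108, 100 and 96.9 (2.00-fold, log2 1.00 ± 0.17), without overlap between groups. MIR503HG, the host of the cell cycle regulator miR-503, rose from 510, 530 and 503 to 718, 773 and 744 (log2 0.54 ± 0.06). PVT1, the neighbour of MYC, rose from 57.3, 59.8 and 65.1 to 108, 95.7 and 87.5 (log2 0.67 ± 0.17), and MYC itself, at 15.1 ± 2.10 and 18.3 ± 2.93 normalized counts, was not called.

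The lower hosts were C22orf34, FTX, LINC00461, AC016205.1 (log2 -0.65), MIR217HG (-0.60), CYTOR (-0.41) and MUC20-OT1 (-0.14). The call of MIR217HG rested on the WT library with 88.1 normalized counts, since without it the log2 fold change was -0.36 (adjusted p = 0.177 by edgeR). The calls of AC016205.1 and MIR217HG were lost with the GC correction, and that of MUC20-OT1 under DESeq2 and with the replicate block (adjusted p = 0.0532). The hypoxia-regulated MIR210HG was not called (84.1 ± 8.86 and 76.4 ± 6.26 normalized counts, SD, n = 3) but was lower with the GC correction (log2 -0.70). CYTOR and MIR4435-2HG, which carry the same miR-4435 sequence, share 54.6% and 31.2% of their 50-base words with other genes, so their counts are uncertain.

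**Figure D3:**
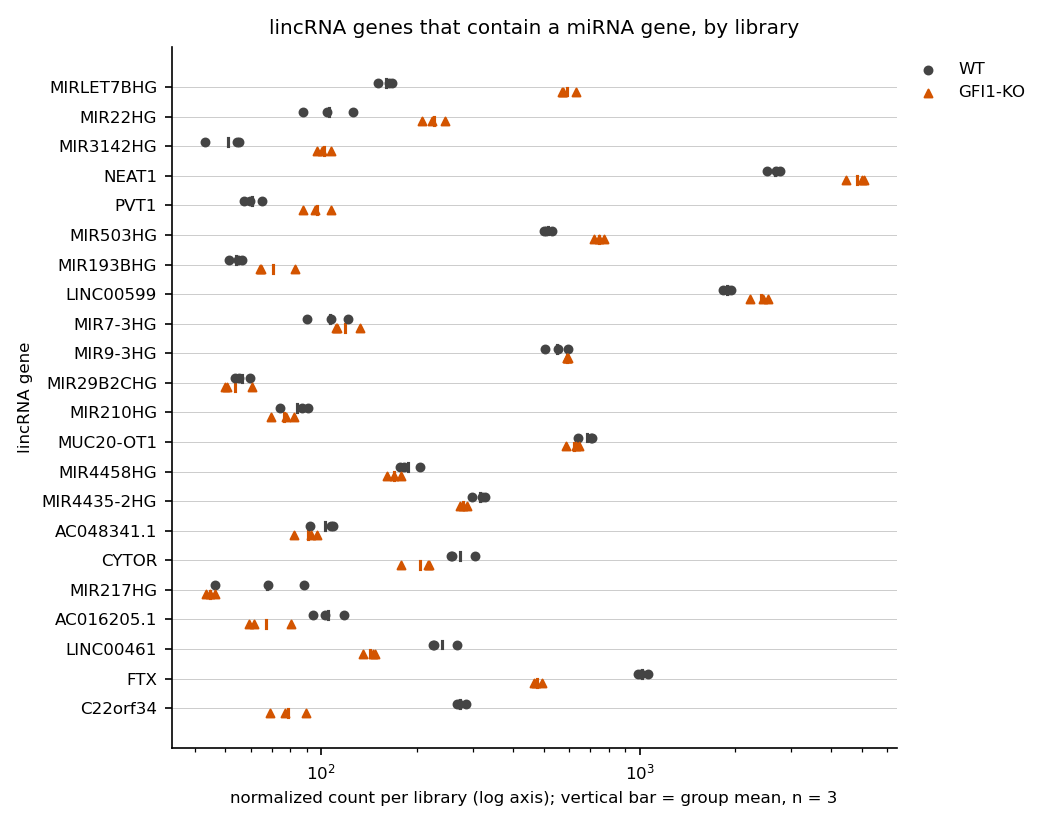
Normalized counts (x axis, log scale) in each of the 3 WT libraries (circles) and 3 GFI1-KO libraries (triangles) for the 22 lincRNA genes that contain a miRNA gene, ordered by log2 fold change; vertical bars are group means. MIRLET7BHG at the top rose 3.69-fold and C22orf34 at the bottom fell to 78.6 from 274 normalized counts.

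Only 6 members held a snoRNA gene on their strand, since most snoRNA hosts carry another biotype in the table. SNHG4 fell from 657, 670 and 679 normalized counts to 469, 494 and 489 (log2 -0.47 ± 0.06, adjusted p = 1.7e-07 by edgeR), and SNHG15 rose from 556, 555 and 531 to 652, 676 and 616 (log2 0.24 ± 0.06, adjusted p = 0.00106). In both the groups did not overlap. SNHG8 was called lower (log2 -0.26 ± 0.10, adjusted p = 0.0262), but not under DESeq2 (adjusted p = 0.139) or without any of 3 single libraries, GFI1-KO 2, GFI1-KO 3 or WT 3. SNHG19, LINC02001 and EPB41L4A-AS1 were not called, and the median of the 6 was -0.089. With the GC correction SNHG19 was called lower (-0.48) and LINC02001 higher (0.37). Over 23 snoRNA host genes of any biotype, 8 were lower and 4 higher (median -0.11), beside 35.9% and 36.5% of all genes tested; with the GC correction 10 were lower and 6 higher. GAS5 (log2 -0.61, corrected -0.21) and SNHG16 (-0.61, corrected -0.43) fell, and SNHG7 (1.54, corrected 0.82) and SNHG12 (0.76, corrected 0.37) rose.

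The machinery that degrades such transcripts was looked up from lists of its factors. Of 10 nonsense-mediated decay factors, 4 rose, among them SMG9 (log2 0.72) and the helicase UPF1 (0.31), and 4 fell, among them UPF2 (-0.32), with a median of 0.050. Among all genes tested, 36.5% were higher and 35.9% lower. With the GC correction 2 of the 10 factors were lower, UPF1 (-0.17) and SMG5 (-0.096), both of which were called higher without it. UPF2 turned to 0.12 and was not called, and SMG9 stayed higher (0.47). SMG1 turned from -0.28 to 0.091 and was called higher. Of 18 nuclear exosome and adaptor factors, 10 fell, including the RNA helicase MTREX (-0.65), the exonuclease DIS3 (-0.61) and the adaptor ZFC3H1 (-0.75), and 2 rose, the poly(A)-binding protein gene PABPN1 (2.10) and EXOSC4 (0.48). The median of this list was -0.19, and with the GC correction 5 fell, 3 rose and the median was 0.046. Without the correction, 35.9% of all genes tested were lower and 36.5% higher. With the correction MTREX (-0.13), DIS3 (-0.091) and ZFC3H1 (-0.28) were still called lower, PABPN1 was at 1.87, and EXOSC4 lost its call (-0.010). RBM7, called lower without it (-0.30), was called higher with it (0.29).

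The neural list contained 12 tested genes, of which 7 were lower, 3 higher and 2 not called, with a median of -0.52; of all genes tested 35.9% were lower and 36.5% higher. With the GC correction 4 were lower and 5 higher, and the median was 0.068. Among its members, MIAT, a nuclear RNA of retina and neurons, fell from 362, 380 and 431 to 183, 221 and 229 (log2 -0.89 ± 0.10, adjusted p = 4.1e-09 by edgeR, and -0.95 with the GC correction). LINC01551 fell from 340, 327 and 298 to 240, 236 and 223 (log2 -0.46 ± 0.09), but its corrected value was 0.099. CRNDE, which starts 1673 bases from IRX5 in the opposite direction, had 843, 808 and 893 in WT and 792, 774 and 781 in GFI1-KO (log2 -0.12 ± 0.06, adjusted p = 0.0627), and its corrected value was 0.57 (adjusted p = 8.7e-10). In CRNDE the direction turned with the correction, and in MIAT it did not.

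Of 24 lincRNA and other long noncoding genes with a known association to cancer, 5 were higher, 8 lower and 11 not called (median 0.016), beside 36.5% higher and 35.9% lower of all genes tested; with the GC correction 10 were higher and 5 lower. Among the members on this list, LINC01234 rose from 226, 206 and 210 to 393, 373 and 414 (log2 0.88 ± 0.08, adjusted p = 6.7e-10 by edgeR) and CASC9 fell from 80.9, 65.3 and 91.3 to 45.7, 49.3 and 39.5 (log2 -0.82 ± 0.19, adjusted p = 5.1e-04). The groups did not overlap in either gene. LINC00467 was called lower (201 ± 9.40 to 164 ± 5.57, log2 -0.30), a call lost under DESeq2 (adjusted p = 0.0931) and with the GC correction.

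Each member was then set beside the nearest protein-coding gene in the deposited coordinates. In 191 of the 233 cases the neighbour was also tested; these pairs had 178 distinct neighbours, at a median distance of 5219 bases between gene bodies. Both genes were called in 106 pairs, 76 in the same direction and 30 in opposite directions. The same direction was thus taken by 71.7% of these pairs, beside 72.8% in pairs of a protein-coding gene with its own nearest protein-coding gene. In 53 pairs only the neighbour was called, in 15 only the lincRNA gene, and in 17 neither. Across the 191 pairs Spearman's rho between the fold changes was 0.38, and across 10957 protein-coding pairs, measured in the same libraries, 0.41; genes are not independent replicates. The lincRNA gene and its neighbour changed unequally in 95 pairs (49.7%, beside 57.4% of all pairs of a tested gene and its nearest protein-coding gene; limma on the ratio of the 2 genes), with the lincRNA change higher in 49 and lower in 46.

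Members in a divergent arrangement, with starts within 5 kb of a protein-coding start, numbered 42. Of these 15 were higher and 6 lower, beside 36.5% and 35.9% of all genes tested. Both genes were called in 20 pairs, 14 in the same direction and 6 in opposite directions, and in protein-coding pairs of this arrangement 77.4% took the same direction. BAIAP2-DT and BAIAP2 rose together (log2 0.77 ± 0.07 and 0.66 ± 0.07), as did FOXD2-AS1 and FOXD2 (0.90 ± 0.13 and 1.07 ± 0.14) and CH17-340M24.3 and ATP6AP1 (0.85 ± 0.19 and 0.69 ± 0.03). PAXIP1-AS1 and PAXIP1 fell together (-0.56 ± 0.17 and -0.53 ± 0.05). These examples, like the opposite pairs other than AL355338.1 in the next lines, were picked after their values were seen.

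In the opposite pairs, AL355338.1 rose from 82.9, 107 and 99.7 normalized counts to 200, 154 and 171 (log2 0.86 ± 0.14), while PCCA, the gene of a propionyl-CoA carboxylase subunit that starts 167 bases away in the window printed above, fell from 349 ± 23.1 to 211 ± 31.5 (log2 -0.73 ± 0.10). The difference was 1.59 ± 0.25 (limma, adjusted p = 2.2e-04). NUP50-DT rose (log2 0.96 ± 0.14) beside a small decrease of NUP50 (-0.08 ± 0.04). TRAM2-AS1 and AL161910.1 fell (-0.48 ± 0.14 and -0.39 ± 0.17) while TRAM2 and GADD45G rose (0.57 ± 0.05 and 0.65 ± 0.05). LINC01547 and FAM207A, which start 97 bases apart, both rose, but by 0.43 ± 0.11 and 1.90 ± 0.10 (difference -1.47 ± 0.19, adjusted p = 6.8e-05 by limma); with the GC correction LINC01547 was at 0.065 and not called.

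Where the gene bodies overlap on opposite strands (27 members, 25 tested pairs), both genes were called in 12 pairs, 8 in the same direction and 4 in opposite directions, and in protein-coding pairs of this kind 79.0% took the same direction. FLJ20021, which overlaps PPP3CA, a calcineurin catalytic subunit gene, had 46.1, 43.2 and 36.7 in WT and 59.1, 70.1 and 85.6 in GFI1-KO (log2 0.77 ± 0.20), whereas PPP3CA fell from 3396 ± 59.0 to 1824 ± 45.0 (log2 -0.90 ± 0.04; difference 1.65 ± 0.16, adjusted p = 7.1e-06 by limma). IQCH-AS1 fell from 64.5, 103 and 93.4 to 31.4, 28.4 and 40.5 (log2 -1.37 ± 0.22) and C15orf61 rose (0.40 ± 0.14). Where they overlap on the same strand (16 members, 14 pairs), 4 pairs had both genes called, all 4 in the same direction, beside 76.2% in protein-coding pairs. AC092279.1 was not called (log2 0.29 ± 0.15, adjusted p = 0.0913 by edgeR) while ZNF254, a zinc finger gene on the same strand, fell from 225 ± 7.80 to 51.2 ± 11.1 (log2 -2.13 ± 0.14). Among more distant pairs, 35 of 46 called pairs within 50 kb and 15 of 24 beyond 50 kb took the same direction, beside 69.7% and 65.4% in protein-coding pairs.

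Fold change moved with base composition. Over the 228 members with a transcript in GENCODE 44, Spearman's rho between log2 fold change and the GC content of the longest transcript was 0.51, and over 17415 of the tested genes it was 0.57. The median GC content was 53.2% in the higher genes, 42.1% in the lower genes and 45.2% in those not called. Some named genes differ in the same way. The transcripts of LINC02593 and MIRLET7BHG, both called higher, have 61.7% and 63.0% GC. Those of FTX, called lower, and CRNDE, not called, have 37.2% and 33.3%. Others do not: NEAT1 and MALAT1, both called higher, have 44.1% and 42.0%, under the member median of 45.9%. The median GC content of the promoter windows was 66.7% in the higher, 52.7% in the lower and 63.7% in the uncalled members. With smooth terms of GC content and length taken out of each library, rho over the members was 0.022, and 69 members were higher and 61 lower. Of the called genes, 49 were higher in both fits, 53 were lower in both, and EBLN3P changed direction. LINC02593 (3.86), MIRLET7BHG (1.29), NEAT1 (1.18), C22orf34 (-2.28) and FTX (-0.45) kept their calls with the correction. The 5 members without a GENCODE 44 entry, AL365361.1 and PWAR6 among them, had no GC value and were given the median correction of each library. The correction takes out any change that follows GC content, whatever its source, and the source was not tested.

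Position and annotation described the members further. Of the 233 genes, 51 overlapped another gene on the same strand and 89 on the other strand, and 104 overlapped no gene; among the last, 31 were higher and 40 lower. In 64 members more than 10% of the 50-base words occur in other genes. The remaining 169, including the 5 without a GENCODE 44 transcript to search, comprised 55 higher and 52 lower genes. Beside the sets of 104 and 169 genes, 36.5% of all genes tested were higher and 35.9% lower. In GENCODE 44, 225 members were still long noncoding RNA genes, AC005696.4 was listed as protein-coding, and 5 had no entry under their identifier. The members lay on 23 chromosomes, and rho between their fold change and the median of the protein-coding genes of the same chromosome was 0.073.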

How the data were processed

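Gene counts of 6 poly(A)-selected libraries were used. According to the methods, the authors aligned reads to GRCh38/hg38 with Hisat2 v2.0.5 and counted with featureCounts v1.5.0-p3, whereas the submitters' processing notes name Bowtie2 and HTSeq; the gene annotation and strand setting are not given in the sources used here. The counts deposited by the authors are raw, per gene, without normalization. The deposited start, end and length columns gave positions and FPKM, which was computed here from the total counts of each library without TMM factors. The members and lists were chosen with earlier results of these data known.

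All genes passing filterByExpr were fitted with edgeR 4.0.16 (R 4.3.3; TMM factors, glmQLFit and glmQLFTest), and p-values were adjusted by Benjamini-Hochberg over the 17514 genes tested. Pairs were tested with limma 3.58.1 (eBayes with trend) on the log2 ratio of normalized counts with a pseudocount of 0.5, over 13984 pairs of a gene and its nearest protein-coding gene. Both steps were run on simulated counts in which 200 genes changed by log2 1. The edgeR step recovered 87% of the changed genes and the pair step 71.6% of the changed pairs. False calls made up 3.33% and 3.24% of the calls. In the real libraries 12680 genes were called, so these shares need not hold for them. The alternatives were DESeq2 1.42.0, limma-voom, other scaling factors and filters, a replicate block, a spline correction for GC content and length, and leaving out each library.

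Named genes were GFI1, the 10 largest called increases and 10 largest called decreases without overlap between groups, the 10 members with the highest FPKM, list members, miRNA hosts, the genes at the threshold, the 5 largest differences among close pairs, and the nearest protein-coding genes of these. GC content and shared words of 50 bases came from GENCODE 44 transcripts, and motifs and miRNAs from RefSeq tables. Same-numbered libraries did not deviate together (correlations of -0.0036 to 0.024 in 3 pairs, and -0.052 to 0.043 in the 6 others), so the numbers were not taken as pairs. Replicates differed by more than sampling noise (chi-square of 1.86 to 4.55 per gene), and none was counted as a repeat. Some items that the naming rule covers are not reported here.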

Additional observations from a re-analysis of the deposited data

How the results depend on the processing

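Leaving out 1 library gave 66 to 70 higher and 71 to 74 lower members, against 71 and 76 with all, and DESeq2 called fewer, 60 and 62. The counts moved with the number of genes selected. A mean of at least 20 counts gave 121 higher and 126 lower of 460 genes. A mean of at least 100 gave 39 and 47 of 127, and members overlapping no other gene 31 and 40 of 104. Beside these, 36.5% of all genes tested were higher and 35.9% lower. With 3 libraries a group and means near 50 counts, small changes may have gone uncalled.

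With the GC and length correction, and equally with the replicate block added to it, 10 miRNA host symbols, 4 genes of the list with NEAT1 and MALAT1, 11 paraspeckle proteins, 5 neural lincRNAs and 10 cancer-associated lincRNAs were higher, while 2 paraspeckle proteins, 2 nonsense-mediated decay factors, 5 nuclear exosome factors, 4 neural lincRNAs and 5 cancer-associated lincRNAs were lower. The correction alone gave 2 higher genes that hold a snoRNA, and 50 pairs with the same and 19 with opposite direction (18 with the block). DESeq2 called 2 miRNA host symbols and 5 cancer-associated lincRNAs lower, and an adjusted p of at most 0.01 left 1 miRNA host symbol lower. Genes holding a snoRNA that were lower numbered 1 under DESeq2, without a filter on low counts and at 0.01, and 1 to 2 with 1 library left out. Shares of all genes called under these alternatives are not given here, so the counts have no background beside them. The cause of these shifts was not tested, apart from the stricter threshold.

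GFI1 (0.31, adjusted p = 0.0273 by edgeR) lost its call under DESeq2 (0.31, adjusted p = 0.127), upper-quartile factors (0.27, 0.0545), the correction (0.17, 0.231), the correction with the block (0.18, 0.234) and the 0.01 threshold (0.31); its range with 1 library left out was 0.21 to 0.43, and it lost the call without GFI1-KO 2, WT 2 or WT 3.

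Directions turned in the members and pairs given below. With the correction they also turned in other list genes, among them UPF1 (-0.17), UPF2 (0.12), SMG5 (-0.096) and EXOSC4 (-0.010). Others were MATR3 (0.29), TARDBP (0.22), HNRNPU (0.40), NUDT21 (0.23), SMARCA4 (-0.36), RBM7 (0.29) and SMG1 (0.091), and more list genes turned that are not named here. NORAD was at -0.0011 with median-of-ratios factors, -0.038 with upper-quartile factors, -0.013 with library size alone, -0.00011 with at least 10 counts in every library, and -0.011 to 0.018 with 1 library left out; SNHG19 ran from -0.20 to 0.041. With the correction, without and with the block, EBLN3P was at 0.15 and 0.15, MIR4435-2HG at 0.23 and 0.23, MIR4458HG at 0.28 and 0.28, MIR7-3HG at -0.098 and -0.097, AC048341.1 at 0.26 and 0.26, SNHG8 at 0.085 and 0.085, LINC01551 at 0.099 and 0.10, and CRNDE at 0.57 and 0.57. The pair difference of LINC00638 and ZBTB42 ran from -0.10 to 0.57 and that of AL365361.1 and KCNA3 from -1.0 to 0.39 with 1 library left out.

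With the replicate number as a block alone, 72 members were higher and 75 lower, 76 pairs had the same and 28 opposite direction, 96 pairs changed unequally and GFI1 was at 0.32; MUC20-OT1 was the named member that lost its call.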
